A study of Mus musculus with 4 samples.

Results

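Potassium channel genes were taken as all mouse genes whose symbol starts with Kcn in the mm9 gene annotation (GENCODE M1), with 1 gene added from RefSeq. Of 94 such symbols in GENCODE M1, 92 had at least 1 block in the deposited table of RefSeq exons, and Kcng2 and Kcnmb3 had none. The noncoding RNA Kcnq1ot1, which GENCODE M1 lacks, was added from RefSeq. The RefSeq symbols Kcnd3os, Kcnmb4os1 and Kcnmb4os2, which GENCODE M1 lists under other names, were left out. This gave 93 Kcn genes among 20808 genes with exon blocks. RNA of frozen small intestine (jejunum, per the study's methods) and colon (distal colon) of C57BL/6 mice aged 9 to 10 weeks had been sequenced on the SOLiD platform, with 1 library for each tissue and protocol. In the cDNA fragmented protocol, polyadenylated RNA was copied into full-length cDNA, which was then broken up. In the RNA fragmented protocol the RNA itself was broken and the strand was kept; the labels call its input depleted of ribosomal RNA, whereas the study's methods call it enriched for polyadenylated RNA. All groups share strain and age, no treatment is given, and both tissues came from the same mice per the study's text, whereas how many stand behind each library is not given in the sources used here. The deposited RNA fragmented libraries hold 36419942 and 37466674 reads of 35 colors, fewer and shorter than the study describes for this protocol, so they may be other runs than those it describes.

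Potassium channels let potassium ions leave the cell and set its membrane voltage. In the intestinal epithelium, potassium that leaves through basolateral channels keeps the voltage that drives chloride secretion, and apical channels secrete potassium into the lumen of the colon. In the muscle layer, calcium-activated and ATP-sensitive channels restrain contraction, and in enteric neurons voltage-gated channels shape firing. The genes code for pore subunits and for accessory subunits that have no pore of their own (the Kcne, Kcnip, Kcnab and Kcnmb genes, with Kcnrg counted here among them).

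The pore subunits share a signature around the selectivity filter, the narrow stretch of the protein that picks potassium over sodium. It was searched in frame in the longest open reading frame of each gene in GENCODE M1, as GGNTANGGN or GGNTTNGGN, with N for any base, on the coding strand only. At least 1 of these forms was found in 76 of 76 pore-forming Kcn genes and in 0 of 16 accessory ones, against 16.2% of 22286 coding genes. Stretches of 7 pore members on which results turn read as follows in coding direction, with the match in capitals.
Kcnma1: atgtctacagtgGGTTATGGGgacgtttat
Kcnk5: atctccaccattGGCTTTGGGgactttgtg
Kcnk10: ctgaccacagtaGGCTTTGGTgattttgtg
Kcnj13: caacttacaattGGTTATGGTaccatgttt
Kcnj8: caagtgaccattGGGTTTGGAgggagaatg
Kcnf1: atgaccacagtgGGCTATGGTgacatctac
Kcnh3: ctcaccagtgtgGGCTTCGGCaacgtgtcc
They lie in coding exons of mm9 at chr14:24347626-24347655 (Kcnma1, minus strand), chr14:20963861-20963890 (Kcnk5, minus), chr12:99678806-99678835 (Kcnk10, minus), chr1:89285587-89285616 (Kcnj13, minus), chr6:142514959-142514988 (Kcnj8, minus), chr12:17181858-17181887 (Kcnf1, minus) and chr15:99063354-99063383 (Kcnh3, plus). For Kcnk5 and Kcnk10, which have 2 pore domains per subunit, the second one is shown. Kcne3, the member with the highest level in 3 of the 4 libraries, belongs to the accessory genes and holds neither form.

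The number of uniquely placed reads was 22484041 in the small intestine and 24798934 in the colon by cDNA fragmentation, and 2035386 and 3478387 by RNA fragmentation. Values are given as reads and as reads per kilobase of exon blocks and per 1000000 uniquely placed reads (RPKM). All 5 of 5 small intestine markers and 5 of 5 colon markers differed at least 3-fold in the labelled direction by both protocols. Among them, Fabp2, Slc2a2, Car1 and Atp12a are named by the study from its own data, so this is no independent check of the labels. The libraries also differed in other cells. The summed level of 10 smooth muscle markers was 367 RPKM in the small intestine and 1333 RPKM in the colon by cDNA fragmentation, and 314 and 2576 RPKM by RNA fragmentation. For 12 enteric neuron markers the sums were 47.3, 86.0, 25.8 and 151 RPKM in the same order, and for 4 markers of interstitial cells 20.8, 42.4, 24.1 and 107 RPKM. Of the interstitial markers only Kit and Ano1 had ratios of colon to small intestine with intervals above 1 in both protocols. For Pdgfra the ratios were 0.842 (0.782 to 0.907) by cDNA and 1.42 (0.993 to 2.05) by RNA fragmentation. For P2ry1 they were 1.45 (1.29 to 1.64) and 0.893 (0.685 to 1.17). For 10 epithelial markers the sums were 11024, 5718, 5261 and 6899 RPKM (3499, 3215, 4608 and 6782 RPKM without Krt20). Of their ratios, 5 had intervals above 1 and 5 below 1 by cDNA fragmentation. By RNA fragmentation 4 had intervals above 1 and 6 below 1, although the sum was higher in the colon. For 7 T cell markers the sums were 98.4, 25.5, 21.9 and 12.2 RPKM. Pancreatic acinar RNA was present in the colon cDNA fragmented library and in the small intestine RNA fragmented library (9 markers summing to 1058 and 3205 RPKM, against 18.7 and 298 RPKM in the other 2). In these other 2 libraries Cela1 alone gave 18.3 and 291 RPKM of those sums. In whole tissue, fewer cells of a type and less RNA per cell cannot be told apart. The shift shared by all genes (the median of their log2 ratios, colon over small intestine) was 0.40 by cDNA and 0.34 by RNA fragmentation, so ratios near this size do not set a gene apart from most genes.

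Within a protocol there was 1 library per tissue, so no replicate error could be calculated, and ratios carry 95% counting intervals only (exact conditional binomial). Amplified reads are not independent molecules, and the intervals leave this out. The 4 libraries were compared in a single limma fit with protocol as a block. It set the tissue difference against the disagreement between protocols, mostly as pooled over genes, for 14137 genes with Benjamini-Hochberg adjustment. The fit has 1 residual degree of freedom per gene and borrows 33.5 prior degrees of freedom from the spread of all genes. A gene's own disagreement between protocols thus has little weight in its p-value. Whether the libraries of a tissue came from different mice is not given, so the p-values measure a spread between these libraries that is mostly pooled over genes.

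Kcn reads other than those of Kcnq1ot1 made up 383 of every 1000000 reads in the small intestine and 814 in the colon by cDNA fragmentation, and 447 and 1076 by RNA fragmentation. Genes with a known epithelial role held most of them, with 79.7% and 84.2% by cDNA and 64.2% and 56.9% by RNA fragmentation. Kcne3 alone took 39.5% and 60.6% of the Kcn reads by cDNA fragmentation, but 5.05% and 10.8% by RNA fragmentation. Genes of smooth muscle and interstitial cells held 8.82% and 8.07% by cDNA and 12.1% and 19.8% by RNA fragmentation, and neural genes held 7.22%, 5.50%, 14.0% and 19.6% in the same order. The Kcn total was 2.13-fold higher in the colon by cDNA and 2.41-fold higher by RNA fragmentation. Without Kcne3 the ratios were 1.39 and 2.26, against a median of all genes of 1.32 and 1.27, so by cDNA fragmentation the excess over that median came mostly from Kcne3.

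**Figure D1:**
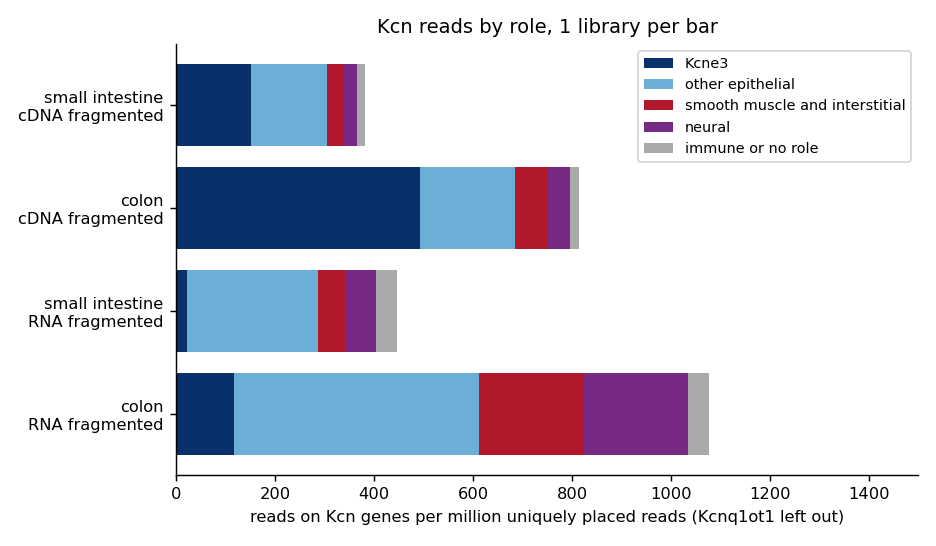
Reads on Kcn genes per 1000000 uniquely placed reads (x axis) in each of the 4 libraries (1 bar each), split by known role, with Kcne3 drawn apart from the other epithelial genes. Both colon bars (814 and 1076) are longer than the small intestine bar of the same protocol (383 and 447), and the Kcne3 segment is widest in the colon cDNA fragmented library.

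A threshold of 5 reads, at more than 2 distinct read positions (start points), was reached by 45 of 93 Kcn genes in the small intestine and 62 in the colon by cDNA fragmentation, and by 32 and 45 by RNA fragmentation. Over all genes the shares were 69.5%, 72.9%, 57.9% and 64.9%. With each library thinned to 2035386 reads the Kcn counts were 17 and 21 by cDNA and 32 and 36 by RNA fragmentation, so the cDNA counts were no longer the higher ones. The share over all genes at that depth was not calculated, so these counts cannot be read as particular to Kcn genes. No read was found in any library for 9 members, namely Kcna10, Kcne1, Kcne1l, Kcnh4, Kcnh5, Kcnj4, Kcnk4, Kcnk12 and Kcnk15 (named after their values were seen). For such a gene a level of up to 3 reads per library remains possible. Kcne1, the partner of Kcnq1 in the heart and inner ear, is among them, while its relative Kcne3 was the most abundant member in the cDNA libraries.

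By the rule of an at least 3-fold higher RPKM in one tissue after adding 1 RPKM to the other, among genes with at least 10 reads, 2 of 56 tested Kcn genes were higher in the colon by cDNA fragmentation (Kcne3 and Kcnip1), against 3.51% of 15000 genes. There was 1 gene higher in the small intestine (Kcnj13), against 2.99%. With ratios centred on the median of all genes this became 1 and 2 genes (the share over all genes was not calculated with centring). By RNA fragmentation 6 of 40 were higher in the colon (Kcne3, Kcne4, Kcnf1, Kcnh3, Kcnk1 and Kcnma1), against 7.41% of 13183 genes, and 0 in the small intestine, against 4.13%. With centred ratios 5 remained in the colon, without Kcnf1 (share over all genes likewise not calculated). With a penalty of 0.1 RPKM the colon counts were 5 by cDNA fragmentation, against 8.73% of all genes, and 15 by RNA fragmentation, against 14.6%, and with start points 4 of 54 were higher in the colon by cDNA fragmentation, against 3.85%.

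In the block fit, 8 of 44 Kcn genes were higher in the colon at an adjusted p of at most 0.05 (limma), against 7.34% of all genes, and 2 were higher in the small intestine, against 7.23%. The genes higher in the colon were Kcnd3, Kcne2, Kcne3, Kcnf1, Kcnip1, Kcnip4, Kcnk1 and Kcnma1, and those higher in the small intestine were Kcnj13 and Kcnk10. The filter on low counts did not look at tissue, and Kcne2 and Kcnip1 passed it through the colon libraries only. Of the small intestine libraries, Kcnip4 reached its level only in the RNA fragmented one, with 6 reads that all lay on the other strand. The calls of Kcne2, Kcnip1 and Kcnip4, which also enter the counts by role and family below, are thus no independent support. Fitted on start points, the calls of Kcne2, Kcne3 and Kcnk1 were lost and Kcnj2 was also called higher in the small intestine. Without the filter on low counts Kcnd3, Kcne2, Kcnip4, Kcnk1 and Kcnma1 were lost. Without the block no Kcn gene was called, and neither was any of the 14137 genes (4 Kcn genes and 782 of all genes at an unadjusted p of at most 0.05, limma). The median fitted log2 difference was 0.44 over the 44 Kcn genes and 0.10 over all genes. Of 77 Kcn genes with reads in both protocols, 17 had a ratio whose interval lay above 1 in both, against 24.5% of 15878 genes, and 2 had an interval below 1 in both, against 9.51%. Centred on the median of all genes, these counts were 12, against 14%, and 4, against 16.2%. By these counts the Kcn genes were near or below the background. No Kcn gene had intervals on opposite sides of 1 in the 2 protocols, against 8.64% of all genes. Whether an interval leaves out 1 also depends on read number, which was not matched between Kcn genes and all genes. These shares therefore do not show that Kcn genes differ from other genes of like read number.

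**Figure D2:**
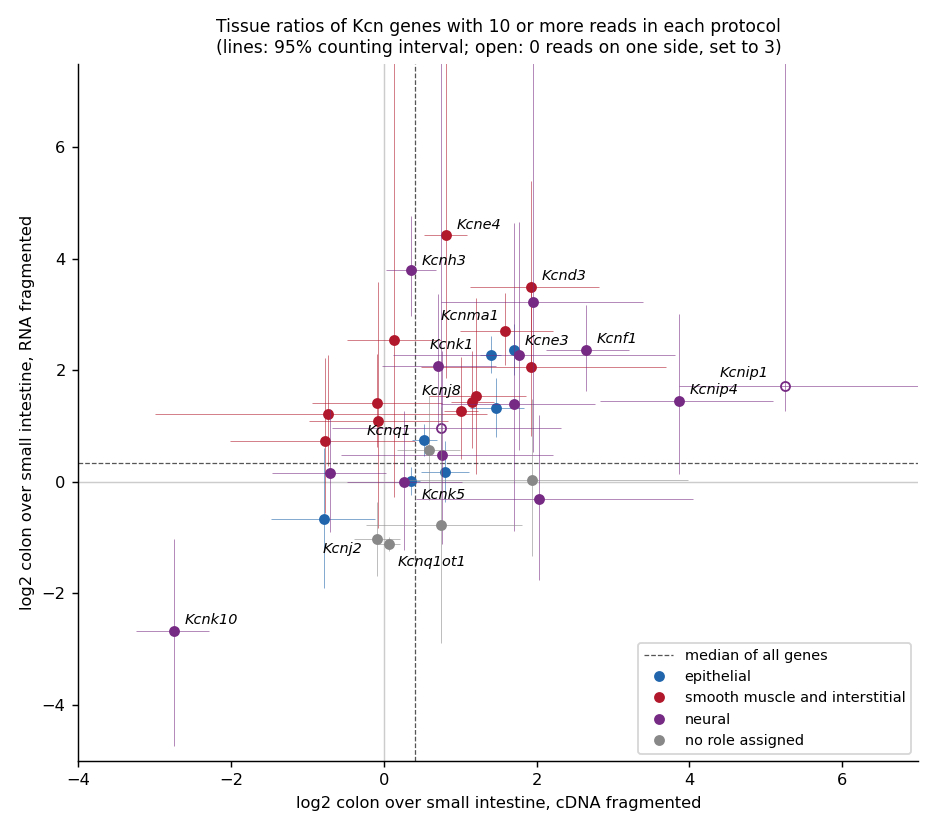
Log2 ratio of colon to small intestine by cDNA fragmentation (x axis) and by RNA fragmentation (y axis) for Kcn genes with at least 10 reads in each protocol, coloured by role, with 95% counting intervals as lines, the median of all genes (0.40 and 0.34) dashed, and open points where 1 library had 0 reads and was set to 3. Kcnk10 stands alone at the lower left with intervals below 0 in both protocols, and most named genes lie at the upper right.

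Epithelial genes were described first. Kcne3, whose protein joins Kcnq1 into a basolateral channel that stays open, had 3399 reads (149 RPKM) in the small intestine and 12233 reads (487 RPKM) in the colon by cDNA fragmentation. By RNA fragmentation it had 46 reads (22.3 RPKM) and 404 reads (115 RPKM). The colon was higher by both protocols, 3.26-fold (3.14 to 3.39) and 5.14-fold (3.78 to 7.13). In the block fit the log2 difference was 1.66 (SE 0.41, adjusted p = 0.00338, limma). Counted as start points, of which there were 1294 and 1565 by cDNA and 32 and 155 by RNA fragmentation, the ratios were 1.16 and 2.83. Its blocks hold 2024 positions over both strands, of which 63.9% and 77.3% were used by cDNA fragmentation, so a start-point ratio of at most 1.49 was possible there and a 3-fold call could not be reached. By RNA fragmentation, with 1.58% and 7.66% used, the 3-fold call was lost with start points. It was also lost with centring by cDNA fragmentation (ratio 2.47). The fit on start points did not call Kcne3, but it includes the limited cDNA value. Junction reads, which span 2 joined exons, numbered 7 and 40 in the cDNA libraries and 0 in both RNA libraries.

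Kcnq1 codes for the pore that carries this current. It had 533 reads (8.15 RPKM) and 850 reads (11.8 RPKM) by cDNA fragmentation, and 134 reads (22.6 RPKM) and 384 reads (38.0 RPKM) by RNA fragmentation. Its ratios of 1.45 (1.30 to 1.61) and 1.68 (1.37 to 2.06) were 1.09 and 1.32 when centred on the median of all genes, which the interval held by cDNA and left out by RNA fragmentation. The difference missed the threshold of the fit (log2 difference 0.34, SE 0.40, adjusted p = 0.653, limma). In length-corrected level, Kcne3 exceeded Kcnq1 in the cDNA libraries and in the colon RNA fragmented library, whereas both were near 22 RPKM in the small intestine RNA fragmented library. Of the accessory partner and the pore, the fit called only the former, and the difference between both ratios was not tested.

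Kcnn4, the calcium-activated basolateral channel of intestinal epithelium, had 134 reads (2.93 RPKM) and 257 reads (5.09 RPKM) by cDNA fragmentation, and 45 reads (10.9 RPKM) and 87 reads (12.3 RPKM) by RNA fragmentation. Its ratio was 1.74 (1.41 to 2.16) and 1.13 (0.781 to 1.66), so the RNA libraries did not separate the tissues beyond counting error. In these libraries a single start point held 25 of the 45 reads and 42 of the 87 reads. The fit gave an adjusted p of 0.782 (limma).

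Among the 2-pore channels of epithelia, Kcnk1 and Kcnk5 lay above Kcnq1 in RPKM in both cDNA libraries, and Kcnk6 lay below it in all 4 libraries. Kcnk1 (TWIK-1) had 594 reads (11.5 RPKM) and 1730 reads (30.3 RPKM) by cDNA fragmentation, and 84 reads (17.9 RPKM) and 697 reads (87.0 RPKM) by RNA fragmentation. The colon was 2.64-fold (2.40 to 2.90) and 4.86-fold (3.87 to 6.16) higher, and the fit called it (log2 difference 1.49, SE 0.40, adjusted p = 0.00883, limma). A single start point held 87 of the 1730 colon reads, and counted as start points the ratios were 1.91 and 2.44. With start points both the 3-fold call by RNA fragmentation and the call of the fit were lost, and the latter also without the filter on low counts. Kcnk5 (TASK-2), an alkali-sensitive channel, had 1035 reads (13.7 RPKM) and 1461 reads (17.5 RPKM), and 209 reads (30.5 RPKM) and 363 reads (31.0 RPKM). Its ratio was 1.28 (1.18 to 1.39) and 1.02 (0.855 to 1.21), and centred on the median of all genes it turned to 0.968 and 0.802 (adjusted p = 0.934 in the fit, limma). Kcnk6 (TWIK-2) had 92 reads (1.0 RPKM) and 282 reads (2.78 RPKM), and 39 reads (4.69 RPKM) and 167 reads (11.7 RPKM), ratios of 2.78 (2.19 to 3.56) and 2.51 (1.76 to 3.65), and an adjusted p of 0.123 (limma). Among these relatives, the fit called Kcnk1 and not the other two; the differences between their ratios were not tested.

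Kcne2, an accessory subunit known from the acid-secreting cells of the stomach, was low. It had 1 read (0.0263 RPKM) and 74 reads (1.77 RPKM) by cDNA fragmentation, a ratio of 67.1 (11.7 to 2685), and 0 and 3 reads by RNA fragmentation, too few for a ratio. The fit gave a log2 difference of 3.81 (SE 0.97, adjusted p = 0.0048, limma), a call that was lost with start points and without the filter on low counts.

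Kcnj13 (Kir7.1), an inward rectifier of transporting epithelia, showed the opposite pattern. It had 969 reads (31.9 RPKM) in the small intestine and 27 reads (0.807 RPKM) in the colon by cDNA fragmentation, 39.6-fold (27 to 60.4) higher in the small intestine. By RNA fragmentation it had 7 reads (2.55 RPKM) and 2 reads (0.426 RPKM), 5.98-fold (1.14 to 59.0). In the fit the log2 difference was -4.95 (SE 0.64, adjusted p = 2.55e-07, limma). Of its 3 exon blocks, 2 overlap exons of Gigyf2 on the other strand, and the cDNA libraries keep no strand, so reads of both genes cannot be told apart there. In the RNA libraries 4 of 7 and 0 of 2 reads lay on the strand of Kcnj13. The block that is Kcnj13 alone, of 118 bases, had 14 reads in the small intestine and 0 in the colon by cDNA fragmentation, and 0 in both RNA libraries. With 0 set to the floor of 3 reads, the cDNA ratio of colon to small intestine in this block was 0.194, and its counting interval reached higher.

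The remaining epithelial members were inward rectifiers at 1.09 RPKM or below in each library. Kcnj10 had 50, 32, 12 and 13 reads, Kcnj15 had 23, 29, 3 and 4, Kcnj16 had 25, 16, 4 and 3, and Kcnj1, the renal potassium-secreting channel, had 3, 4, 1 and 1. None of these was called by the fit or lay 3-fold apart, and the interval of the ratio left out 1 only for Kcnj10 by cDNA fragmentation (0.580, 0.360 to 0.922); these 4 were named after their values were seen. Of the 12 epithelial genes, 11 were fitted. The fit called 3 higher in the colon, against 7.34% of all genes, and 1 higher in the small intestine, against 7.23%. Of these, Kcne2 had passed the filter on low counts through the colon libraries only. The median log2 ratio of the epithelial genes was 0.53 by cDNA fragmentation (11 genes) and 0.75 by RNA fragmentation (7 genes), against 0.41 and 0.42 over all genes tested.

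Epithelial transport genes that work with these channels were compared as a list of 19. The fit called 9 higher in the colon and 2 higher in the small intestine among 17 fitted, against 7.34% and 7.23% of all genes. Of these, Scnn1b, Scnn1g and Best2 (0 and 178 reads, 0 and 119 reads) passed the filter on low counts through the colon libraries only. Their calls are thus no independent support. Atp12a and Slc26a3 were also on the list of colon markers, and Ano1 on that of interstitial cells. The count of 9 is therefore partly set by how genes were chosen and filtered. Slc12a2, the basolateral chloride loader NKCC1, was at 18.5 and 23.4 RPKM by cDNA fragmentation and at 52.0 and 138 RPKM by RNA fragmentation, and the chloride channel gene Cftr was at 12.4, 14.5, 32.6 and 27.6 RPKM, and neither was called (adjusted p = 0.348 and 0.706, limma). The sodium channel subunits Scnn1b (0 and 204 reads, 0 and 93 reads) and Scnn1g (1 and 183 reads, 0 and 25 reads) and the colonic proton pump Atp12a (0 and 1468 reads, 2 and 1207 reads) were called in the colon. The anion exchanger Slc26a6 was called in the small intestine (158 and 0.858 RPKM, and 189 and 3.80 RPKM).

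**Figure D3:**
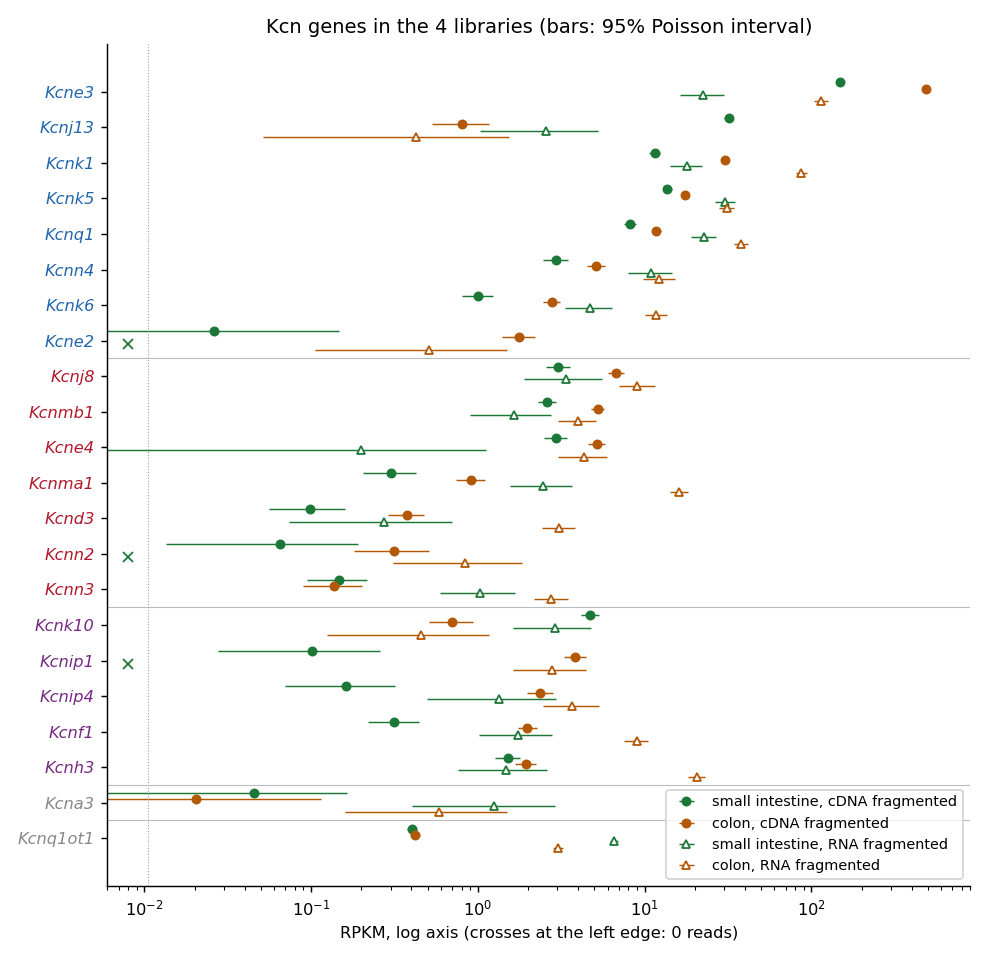
RPKM on a log axis of the 22 named Kcn genes in the 4 libraries (green small intestine, orange colon, filled circles cDNA fragmented, open triangles RNA fragmented), with 95% Poisson intervals as bars and crosses at the left edge for 0 reads; genes are grouped by role from epithelial at the top to immune and unassigned at the bottom. Kcne3 reaches 487 RPKM in the colon, orange lies right of green for most genes, and the reverse is seen for Kcnj13 and Kcnk10.

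Genes of smooth muscle and interstitial cells followed. Kcnma1, the pore of the large-conductance calcium-activated (BK) channel, had 31 reads (0.30 RPKM) and 103 reads (0.904 RPKM) by cDNA fragmentation, and 23 reads (2.46 RPKM) and 257 reads (16.1 RPKM) by RNA fragmentation. The colon was 3.01-fold (2.0 to 4.66) and 6.54-fold (4.26 to 10.5) higher, and the fit called it (log2 difference 1.86, SE 0.56, adjusted p = 0.0187, limma). All reads of the RNA libraries lay on its own strand, and 9 junction reads were found in the colon RNA fragmented library. This gene is also used by colonic epithelium for potassium secretion, so its place in the muscle list does not give the cells behind the reads.

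The partners of the BK pore differed in their levels. Kcnmb1, the smooth muscle β1 subunit that raises its calcium sensitivity, had 245 reads (2.60 RPKM) and 542 reads (5.22 RPKM) by cDNA fragmentation, and 14 reads (1.64 RPKM) and 58 reads (3.98 RPKM) by RNA fragmentation, ratios of 2.01 (1.72 to 2.34) and 2.42 (1.34 to 4.71). It missed the threshold (adjusted p = 0.299, limma), and on its own strand alone the RNA libraries had 9 and 54 reads, 3.51-fold (1.72 to 8.09). Lrrc26, a γ subunit of BK channels in secretory epithelia and no Kcn gene, was at 10.1 and 30.6 RPKM by cDNA and at 7.24 and 31.4 RPKM by RNA fragmentation. It was called in the colon (log2 difference 1.48, SE 0.46, adjusted p = 0.0254, limma). The other BK subunit genes with blocks, Kcnmb2 and Kcnmb4, had at most 14 reads in any library.

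Kcnj8 (Kir6.1), the pore of the ATP-sensitive channel of smooth muscle, had 149 reads (3.03 RPKM) and 366 reads (6.75 RPKM), and 15 reads (3.37 RPKM) and 69 reads (9.07 RPKM). Its ratios were 2.23 (1.84 to 2.71) and 2.69 (1.52 to 5.07), with an adjusted p of 0.218 (limma). Abcc9, which codes for its sulfonylurea receptor, was at 1.36 and 1.80 RPKM by cDNA and at 1.40 and 5.57 RPKM by RNA fragmentation (adjusted p = 0.409, limma). Kcne4, an accessory subunit that inhibits several voltage-gated channels, had 163 reads (2.94 RPKM) and 315 reads (5.16 RPKM) by cDNA fragmentation, but 1 read (0.199 RPKM) and 37 reads (4.32 RPKM) by RNA fragmentation. The ratios were 1.75 (1.45 to 2.13) and 21.7 (3.65 to 878), and the fit did not call it (adjusted p = 0.213, limma). Its size thus rests on 1 read in the small intestine RNA fragmented library.

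Kcnd3 (Kv4.3), which carries the transient outward current, had 16 reads (0.0985 RPKM) and 67 reads (0.374 RPKM) by cDNA fragmentation, and 4 reads (0.272 RPKM) and 77 reads (3.06 RPKM) by RNA fragmentation. The colon was 3.80-fold (2.18 to 7.02) and 11.3-fold (4.23 to 42.4) higher, and the fit called it (log2 difference 2.23, SE 0.69, adjusted p = 0.0245, limma). Every cDNA fragmented read lay in its last block of 4995 bases, whereas 18 of the 77 reads of the colon RNA fragmented library lay in earlier blocks.

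The small-conductance channels were rare. Kcnn2 (SK2) had 3 reads and 16 reads by cDNA fragmentation, a ratio of 4.84 (1.38 to 25.9), and 0 and 6 reads by RNA fragmentation. Kcnn3 (SK3), the channel of the platelet-derived growth factor receptor-positive interstitial cells, had 25 reads (0.146 RPKM) and 26 reads (0.138 RPKM) by cDNA fragmentation, but 16 reads (1.03 RPKM) and 73 reads (2.76 RPKM) by RNA fragmentation. Its ratio was 0.943 (0.523 to 1.70) by the former and 2.67 (1.54 to 4.91) by the latter, and the fit gave an adjusted p of 0.758 (limma). Only 37.9% of the bases of its blocks were exons of Kcnn3 in GENCODE M1.

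Over the 15 genes of this role, 13 had at least 10 reads in the cDNA libraries and 12 in the RNA libraries. The reads were summed over both tissues, so a low gene could enter through the colon alone, as Kcne4 did by RNA fragmentation (1 and 37 reads). The counts of ratios above 1 and the medians are therefore partly set by the entry rule and are no test of direction. By RNA fragmentation all 12 had a ratio above 1 (on the log2 scale 0.74 to 4.44, median 1.49), as did 64.7% of all genes tested (median 0.42). By cDNA fragmentation 9 of 13 did (median 1.0), against 66.5% of all genes (median 0.41). The fit called 2 of 12 higher in the colon, Kcnma1 and Kcnd3, against 7.34% of all genes. Of the 10 smooth muscle markers, 9 by cDNA and 10 by RNA fragmentation had an interval above 1 (Mylk lay below 1 by cDNA fragmentation), with 6 of 10 at least 3-fold higher in the colon by each protocol and a ratio of their sums of 3.63 by cDNA and 8.22 by RNA fragmentation. Their part in the ratios of these Kcn genes was not tested.

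Neural genes formed the largest role list, with 40 members, of which 20 had 10 reads or more in the cDNA libraries and 15 in the RNA libraries. Kcnip1 codes for a calcium sensor that binds Kv4 channels. It had 4 reads (0.101 RPKM) and 168 reads (3.85 RPKM) by cDNA fragmentation, a ratio of 38.1 (14.6 to 141), and 0 and 17 reads (2.78 RPKM) by RNA fragmentation, at least 3.32-fold higher in the colon with 0 set to the floor of 3 reads (2.41-fold at the lower end of the counting interval). The fit gave a log2 difference of 4.54 (SE 0.81, adjusted p = 7.47e-05, limma). Reads covered 7 of its 8 exon blocks in the colon cDNA fragmented library, and a block of 398 bases had none.

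Its relative Kcnip4 had 8 reads (0.163 RPKM) and 128 reads (2.36 RPKM) by cDNA fragmentation, a ratio of 14.5 (7.14 to 34.3), and 6 reads (1.35 RPKM) and 28 reads (3.68 RPKM) by RNA fragmentation, a ratio of 2.73 (1.11 to 8.07). The fit called it (log2 difference 2.54, SE 0.73, adjusted p = 0.014, limma). On the strand of the gene the RNA libraries held 0 of 6 and 22 of 28 reads, so the small intestine reads all lay on the other strand. Counted on its own strand it was at least 4.29-fold higher in the colon with 0 set to the floor of 3 reads (3.21-fold at the lower end of the counting interval). Kcnip2 and Kcnip3 had at most 37 reads in any library. Kcnip3 was not called and Kcnip2 was too low to be fitted, so of the 4 Kcnip genes the fit called Kcnip1 and Kcnip4.

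Kcnf1 (Kv5.1), a silent subunit that alters other voltage-gated channels, had 34 reads (0.316 RPKM) and 235 reads (1.98 RPKM) by cDNA fragmentation, and 17 reads (1.74 RPKM) and 149 reads (8.95 RPKM) by RNA fragmentation. Its ratio was much the same in both protocols, 6.27 (4.36 to 9.26) and 5.13 (3.10 to 9.04), and the fit called it (log2 difference 2.22, SE 0.55, adjusted p = 0.004, limma). Its 3-fold call by RNA fragmentation was lost with centring.

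Kcnh3, a voltage-gated channel of forebrain neurons, had 136 reads (1.52 RPKM) and 192 reads (1.94 RPKM) by cDNA fragmentation, but 12 reads (1.48 RPKM) and 286 reads (20.6 RPKM) by RNA fragmentation. The ratios were 1.28 (1.02 to 1.61) and 13.9 (7.86 to 27.3), and centred on the median of all genes the first turned to 0.968. Its last block overlaps the gene Mcrs1 on the other strand and held 136 of 136 and 184 of 192 cDNA fragmented reads. In the other 14 blocks there were 0 and 8 reads by cDNA fragmentation and 5 and 176 reads by RNA fragmentation, all of the latter on the strand of Kcnh3, 20.6-fold (8.66 to 64.2) higher in the colon. The cDNA fragmented values of Kcnh3 thus rest almost wholly on the shared block. The fit did not call it (adjusted p = 0.102, limma).

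Kcnk10 (TREK-2), a 2-pore channel opened by stretch and fatty acids, was the neural member that was higher in the small intestine. It had 268 reads (4.71 RPKM) and 44 reads (0.700 RPKM) by cDNA fragmentation, and 15 reads (2.91 RPKM) and 4 reads (0.454 RPKM) by RNA fragmentation. The small intestine was 6.72-fold (4.87 to 9.46) and 6.41-fold (2.04 to 26.5) higher, and the fit called it (log2 difference -2.95, SE 0.60, adjusted p = 0.000455, limma). None of its 7 blocks is shared with another gene, reads covered 6 of them in the small intestine cDNA fragmented library, and all 19 reads of the RNA libraries lay on its strand. The 12 enteric neuron markers went the other way, with 11 of 12 intervals above 1 and 0 below 1 in each protocol. Its close relative Kcnk2 (TREK-1), counted with the muscle genes and named after its values were seen, had 43 and 52 reads and 1 and 10 reads, with intervals that included 1.

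The other 35 neural genes were low, at no more than 1.87 RPKM in any library. No read was found in any library for 5 of them. Over the neural genes with at least 10 reads, the median log2 ratio was 1.57 by cDNA fragmentation (20 genes, against 0.41 over all genes) and 1.40 by RNA fragmentation (15 genes, against 0.42). Of these, 17 of 20 and 11 of 15 were above 0, against 66.5% and 64.7% of all genes. The 10 reads were summed over both tissues, so a low gene could enter through the colon alone, as Kcnc2 did by RNA fragmentation (0 and 10 reads). These counts and medians are therefore partly set by the entry rule and are no test of direction. Among 15 fitted neural genes the fit called 3 higher in the colon and 1 higher in the small intestine, against 7.34% and 7.23% of all genes. Of these, Kcnip1 had passed the filter on low counts through the colon libraries only. So had Kcnip4, if its small intestine RNA fragmented reads, all on the other strand, are left out. The 12 enteric neuron markers were also higher in the colon, with ratios of their sums of 1.82 and 5.84, and their part in these ratios was not tested. Kcna3 (Kv1.3), the channel of T lymphocytes, had 2 and 1 reads and 5 and 4 reads, too few to compare the tissues, although the T cell markers summed to 3.86-fold and 1.79-fold more in the small intestine.

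Kcnq1ot1, a long noncoding RNA that runs against Kcnq1 and silences neighbouring genes on the paternal chromosome, was recognised by length, as the block of 83437 bases at chr7:150399016-150482452 (minus strand) equals the length of the RefSeq gene. It held 756 reads (0.403 RPKM) and 872 reads (0.421 RPKM) by cDNA fragmentation, and 1115 reads (6.57 RPKM) and 880 reads (3.03 RPKM) by RNA fragmentation. The ratio was 1.05 (0.948 to 1.15) by the former and 0.462 (0.422 to 0.505) by the latter. It was the Kcn gene with the most reads in both RNA libraries, but these reads differed from those of the other members.

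In the RNA libraries only 32.3% (29.6 to 35.1, Wilson) of the reads in the small intestine and 45.3% (42.1 to 48.6) in the colon lay on the strand of Kcnq1ot1, whereas Kcnq1 itself had 134 of 134 and 384 of 384 reads on its own strand. Over all other Kcn genes the share on the gene's strand was 94.1% and 98.4%, against 98.4% over all genes in each library. Reads with at most 1 color mismatch were 7.80% and 8.94% of the block's reads in the cDNA libraries and 26.9% and 34.8% in the RNA libraries, against 59.8%, 59.5%, 64.5% and 67.4% of all reads. Most reads lay in a window from 66 to 80 kb from the 5′ end (89.2% and 82.2% by cDNA, 62.4% and 53.9% by RNA fragmentation), which was chosen after its values were seen. Outside this window the RNA libraries had 82 and 149 reads on the strand of Kcnq1ot1 and 337 and 257 on that of Kcnq1, whose introns lie there. How much of the signal is Kcnq1ot1, unspliced Kcnq1 or reads from elsewhere was not tested.

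**Figure D4:**
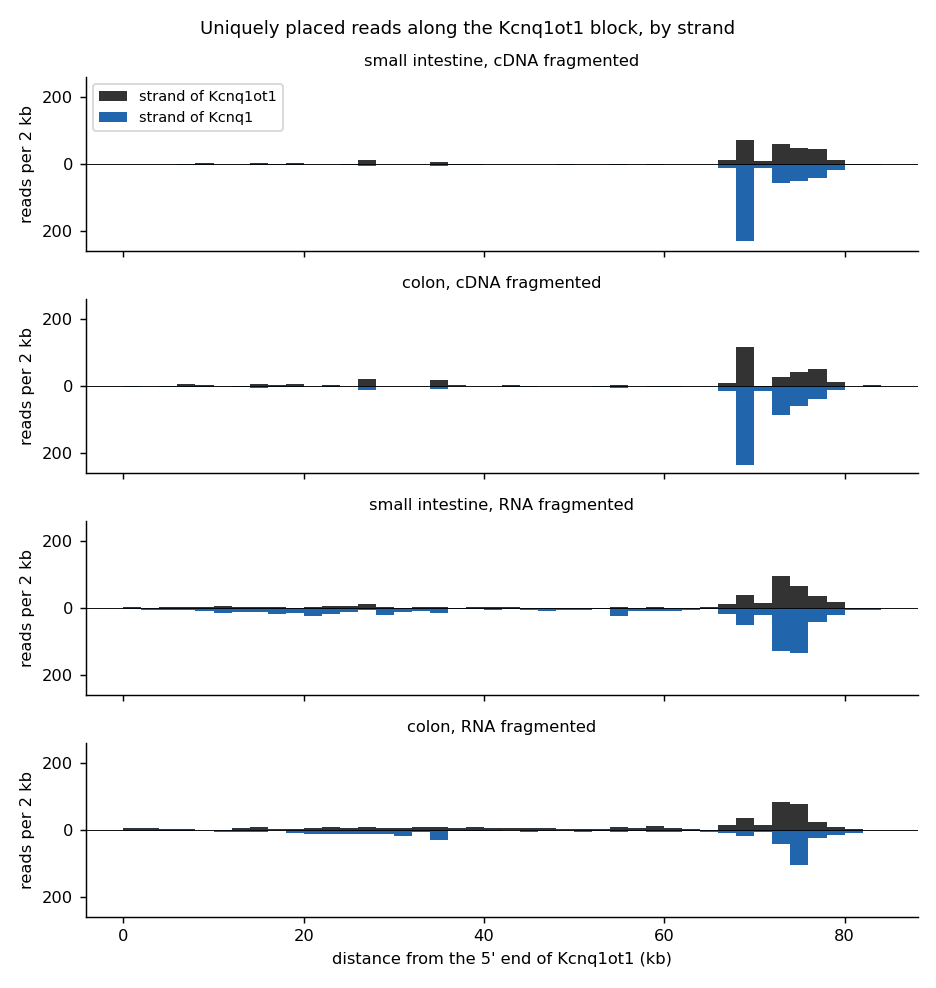
Uniquely placed reads per 2 kb (y axis) along the Kcnq1ot1 block by distance from its 5′ end in kb (x axis), in each of the 4 libraries, with reads on the strand of Kcnq1ot1 drawn upward in black and those on the strand of Kcnq1 drawn downward in blue. All libraries peak between 66 and 80 kb on both strands, and the RNA fragmented libraries add low coverage along the whole block, mostly on the strand of Kcnq1.

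The mismatch quality of the other members was mostly higher. Of 43 members with at least 20 cDNA fragmented reads, 4 had fewer than 40% of them with at most 1 mismatch (Kcnq1ot1, Kcnc1, Kcnj2 and Kcnrg, named after their values were seen), and the median was 58.8%. Kcnj2 (Kir2.1), the classical inward rectifier, had 183 reads (1.49 RPKM) and 189 reads (1.40 RPKM), and 45 reads (4.06 RPKM) and 38 reads (2.01 RPKM), with 30.4% of its cDNA fragmented reads at that quality (48.6% in the small intestine and 12.7% in the colon). A single start point held 82 of the 189 colon reads, and counted as start points its ratio by cDNA fragmentation was 0.450 in place of 0.936 (0.760 to 1.15). By RNA fragmentation the ratio was 0.494 (0.312 to 0.778). By family, against 7.34% of all genes higher in the colon and 7.23% higher in the small intestine, the fit called 4 of 9 fitted accessory subunits of voltage-gated channels higher in the colon (Kcne2, Kcne3, Kcnip1 and Kcnip4), and 2 of 16 voltage-gated pores (Kcnd3 and Kcnf1), 1 of 5 calcium- or sodium-activated channel genes (Kcnma1) and 1 of 6 channels with 2 pore domains (Kcnk1, with Kcnk10 called higher in the small intestine). None of 7 inward rectifiers was called higher in the colon, and 1 of them, Kcnj13, was called higher in the small intestine. In the fit on start points 2 of these accessory calls (Kcne2 and Kcne3) and that of Kcnk1 were lost, and Kcnj2 was gained in the small intestine. Kcne2 and Kcnip1 had passed the filter on low counts through the colon libraries only. So had Kcnip4, if its small intestine RNA fragmented reads, all on the other strand, are left out.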

How the data were processed

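The authors deposited, for each of the 4 libraries, the positions, strands and color mismatches of single SOLiD reads, tables of exon and junction positions, and matching reports, with no normalized values. Per the file headers, 35 colors per read had been matched to mm9 RefSeq exon blocks and junctions with up to 3 mismatches, and uniquely placed reads were kept. The recounted reads equal the totals in the reports. Blocks were given to GENCODE M1 genes (coding first, then the largest overlap) and reads to the block of their middle base, so genes that share a block are uncertain. Kcnq1ot1 was found by its RefSeq length, a choice made after its reads had been seen.

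RPKM, 3-fold calls (penalty 1 RPKM), exact conditional binomial, Poisson and Wilson intervals at 95% and a floor of 3 reads for 0 were calculated in Python 3.11.15 (scipy 1.17.1). The count-model test that had been planned was not run. The deposit holds read positions and no column of counts. In its place limma 3.58.1 (voom weights, TMM factors, protocol as block, a level worth 10 reads in 2 libraries and 15 reads in all) was run in R 4.3.3, on the reads recounted per gene from these positions. Tested on simulated data, this fit recovered 200 of 200 genes changed 8-fold and called 2 unchanged genes among 14249, and the 3-fold rule recovered 164 of 200 by cDNA fragmentation. Changed genes were drawn from well-covered ones only. The simulated effect was the same in both protocols, and the noise had the same spread for all genes. False calls from disagreement between protocols were therefore not tested. Genes named are the 15 highest Kcn genes of the cDNA libraries, those called by either rule or by the fit, and 10 set ones (Kcnq1, Kcne3, Kcnn4, Kcnma1, Kcnmb1, Kcnj8, Kcnn2, Kcnn3, Kcna3 and Kcnq1ot1). The members, roles and lists were chosen with earlier results of these data known. Coding sequences are from GENCODE M1 and mm9. Precision is set by 2035386 to 24798934 uniquely placed reads per library. A few items are not reported here.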

Additional observations from a re-analysis of the deposited data

How the results depend on the processing

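With a penalty of 0.1 RPKM, 5 Kcn genes were at least 3-fold higher in the colon by cDNA fragmentation, against 8.73% of all genes, and 15 by RNA fragmentation, against 14.6%. The small intestine counts were 2 and 1. Centred on the median of ratios, the cDNA counts were 1 in the colon and 2 in the small intestine. With start points they were 4, against 3.85% of all genes, and 2. For the small intestine counts and the centred counts the share over all genes was not calculated, so they have no background. Centring also gave 4 genes with intervals below 1 in both protocols (Kcnj2 and Kcnq1ot1 were added; with start points Kcnj2 was added and Kcnj13 lost), and among ratios whose interval left out 1 it reversed the log2 ratio by cDNA fragmentation of Kcnh3 to -0.0468 and of Kcnk5 to -0.0470. The block fit called 3 of 84 Kcn genes higher in the colon without a filter on low counts, against 566 of 17442 genes. With start points it called 5 of 41, against 970 of 13904. With no replicate block it called 0 in either direction, as among all 14137 genes (4 Kcn genes and 782 of all genes at an unadjusted p of at most 0.05, limma). limma without weights, added after seeing the data, called 9 and 2 of 44 Kcn genes, against 937 and 913 of 14137. Detection by at least 1 read gave 73 and 63 Kcn genes in the small intestine libraries (cDNA, RNA) and 79 in the colon RNA fragmented library, at least 10 reads gave 20 in the small intestine RNA fragmented library, and thinning to 2035386 reads gave 17 and 21 in the cDNA libraries. The share over all genes was not calculated for these detection counts. With start points the share on the gene's strand was 97.6% in the colon RNA fragmented library. With the Kcnq1ot1 block counted as Kcnq1, also added later, its log2 ratio by RNA fragmentation reversed to -0.76. Of 156 alternative values of 39 single-gene ratios, 127 stayed within the counting interval of the reported ratio. In all 8 changed sign, the 3 given above and 5 of ratios whose interval held 1, namely Kcnk5 by RNA fragmentation (centred -0.32, start points -0.05), Kcnn4 by RNA fragmentation (centred -0.16, at most 1 mismatch -0.11) and Kcnq1ot1 by cDNA fragmentation (centred -0.34). Leaving out a library leaves the fit no residual degree of freedom, and a fit with a second count tool was not run.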
